A study of Sus scrofa with 2 samples.

Results

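The genes of neuron and astrocyte function CPE, UCHL1, NDN, ATP1B1 and MT3, were examined on a cDNA microarray made from a porcine brain library. They were taken by gene symbol from the probe annotation and make up 5 of its 83 named genes, each with 3 consecutive spots, or 15 of 249 named spots and of 3888 spots in all. The data were 2 two-colour arrays in 1 group. In each array both channels held cDNA from the whole brain of a female pig aged 23 days, made from 18 µg of total RNA and divided into 2 aliquots before labelling. No genotype, strain or treatment is given in the labels. The labels call array 2 a repeat of array 1, without stating if it came from that animal or from its RNA. Every p-value therefore rests on the spread of values within or between these 2 hybridisations, in most fits shared over genes or spots. This spread may be technical. The question set by this design is how far the channels differ when they hold the same sample. A log2 ratio of 0 means equal channels, and a value away from 0 is measurement error for that gene, not regulation. The dyes and the direction of the ratio are not given in the sources used here. A value below 0 means a higher signal in one and the same unnamed channel, provided that the ratio was taken in the same direction on both arrays.

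The 5 genes serve signalling cells in different ways. CPE encodes carboxypeptidase E, which removes basic residues from the ends of neuropeptide and prohormone intermediates in secretory granules. UCHL1 encodes a ubiquitin hydrolase that is among the most abundant proteins of neurons and helps to maintain free ubiquitin. NDN encodes necdin, a MAGE family protein of postmitotic neurons whose gene is imprinted. ATP1B1 encodes a beta subunit of the sodium pump, which helps the catalytic alpha subunit to fold and to reach the membrane, where the pump restores the ion gradients spent in signalling. MT3 encodes the brain metallothionein, a small cysteine-rich protein that binds zinc and copper and is made in astrocytes and neurons. Because only ratios were used here, the level of these transcripts in brain, and with it the tissue label, was not checked.

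All 5 genes lay below 0 on both arrays, by 1.05-fold to 1.19-fold when their 3 spots were averaged. All 30 of their spot values were below 0, from -0.057 for a spot of MT3 to -0.42 for a spot of NDN on the log2 scale, so that the largest difference between channels at any of their spots was 1.34-fold. Over the 83 named genes, 15 (18.1%) were below 0 in all 6 values, these 5 included, and 16 were above 0 in all 6. Of the other 78 genes, 10 were below 0 in all 6 and 16 above. Among all 865 runs of 3 spots up to the last named spot, number 2595, 103 (11.9%) were below 0 in all 6 values. Averaged over the 3 spots, 33 of the 83 genes (39.8%) were below 0 on both arrays. The count for the 5 genes is a description with no test, as these genes were proposed with results of these arrays known. If the ratio of array 2 was taken in the opposite direction, array 1 and array 2 would lie on opposite sides of 0 for every one of the 5 genes.

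**Figure D1:**
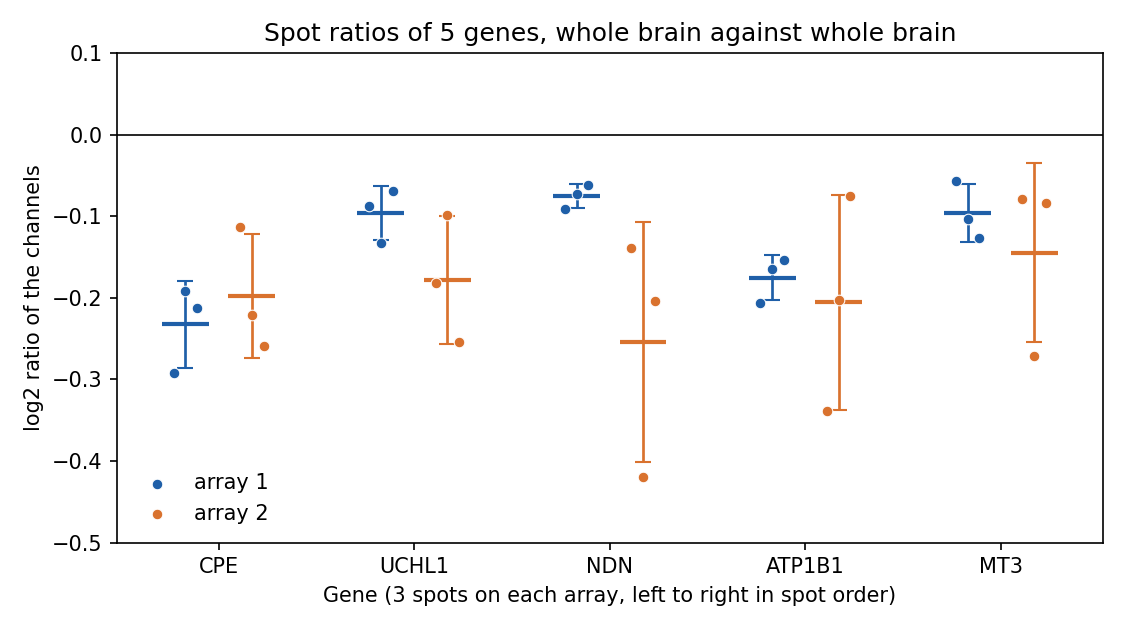
Log2 ratio of the channels (vertical axis) at each of the 3 spots of CPE, UCHL1, NDN, ATP1B1 and MT3 on array 1 (blue) and array 2 (orange), in spot order within a gene. Horizontal lines are means of 3 spots and bars are SDs over the 3 spots; all 30 points lie below 0, and each gene's spots scatter more on array 2.

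Averaged over both arrays as deposited, CPE had the lowest mean of the 83 named genes, though it was the third lowest on array 1 and the seventh on array 2. Less the local median of neighbouring spots, TPT1, the gene of a tumour protein under translational control, at -0.26 and ATP1B1 at -0.24 lay below CPE at -0.20. Its 3 spots read -0.29, -0.19 and -0.21 on array 1 and -0.11, -0.22 and -0.26 on array 2. The spots of the arrays overlapped, whereas those of 26 of the 83 named genes (31.3%) did not. The gene means were -0.23 on array 1 and -0.20 on array 2, or -0.22 ± 0.024 (SD, n = 2 arrays), a 1.16-fold difference between channels with a 95% interval of 1.06-fold to 1.27-fold. In limma at 1 value per named gene, CPE was the member of the 5 that passed the threshold of 0.05, with a Benjamini-Hochberg adjusted p of 0.049 over the 83 genes. In that fit 5 of the 83 genes (6.02%) passed in either direction and 2 (2.41%) below 0. The call was lost under 11 of 13 alternatives. Among them was the shift of each array by at most 0.021 that centres it on spots 1 to 2595 (mean -0.23, limma adjusted p = 0.33). The mean stayed between -0.23 and -0.20 under every alternative other than turning the sign of array 2. Several of these alternatives change only the fit and leave the mean as it was. The adjusted p ranged from 0.032, with the 3 spots taken as replicate spots within an array, to 0.99 with the sign of array 2 turned.

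ATP1B1 had an SD between arrays close to that of CPE. Its spots read -0.21, -0.16 and -0.15 on array 1 and -0.34, -0.20 and -0.075 on array 2. The spots of array 2 enclosed all those of array 1. The gene means were nearly equal at -0.18 and -0.21, or -0.19 ± 0.022 (SD, n = 2), a 1.14-fold difference with a 95% interval of 1.04-fold to 1.25-fold. The limma adjusted p was 0.067, and over the 13 alternatives it ranged from 0.064 to 0.99, so ATP1B1 did not pass in any of them. Its spots scattered more widely on array 2, with an SD over the 3 spots of 0.13, against 0.028 on array 1.

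NDN was the least repeatable of the 5 genes. On array 1 its spots read -0.091, -0.073 and -0.061, the narrowest set of the 5 genes, with an SD of 0.015. On array 2 they read -0.14, -0.42 and -0.20, with an SD of 0.15, the widest set of the 5. All 3 spots of array 2 lay below all 3 of array 1, which held for 10 of the 83 named genes (12.0%). The gene mean went from -0.075 on array 1, the 15th lowest of 83, to -0.25 on array 2, the second lowest. The mean of the arrays was -0.16 ± 0.13 (SD, n = 2), a 1.12-fold difference with a 95% interval of 1.02-fold to 1.23-fold and a limma adjusted p of 0.12. The median of the 3 spots, which sets aside the spot at -0.42, gave a mean of -0.14.

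In the mean of both arrays as deposited, UCHL1 and MT3 lay closest to 0 of the 5 genes, though NDN was nearer 0 on array 1. UCHL1 read -0.087, -0.13 and -0.069 on array 1 and -0.18, -0.099 and -0.25 on array 2. Its spots overlapped between arrays, and its means were -0.096 and -0.18, or -0.14 ± 0.058 (SD, n = 2), a 1.10-fold difference with a limma adjusted p of 0.18. MT3 read -0.057, -0.10 and -0.13 on array 1 and -0.080, -0.27 and -0.083 on array 2. Its spots overlapped too, since the spots at -0.080 and -0.083 on array 2 fell within the range of array 1. The MT3 means were -0.096 and -0.14, or -0.12 ± 0.035 (SD, n = 2), a 1.09-fold difference, with a limma adjusted p of 0.26 and a 95% interval on the log2 scale of -0.25 to 0.013. MT3 was thus the member whose interval included equal channels, while those of the other 4 did not. Without adjustment, 4 of the 5 genes had a limma p under 0.05, all but MT3. Over the 83 named genes, 20 had such a p in either direction. Of these, 10 (12.0% of the 83) had a mean below 0, the 4 genes included.

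The intervals come from a fit in which each gene had 1 residual degree of freedom of its own and borrowed a spread from all 83 genes. That shared spread, an SD of 0.095, carried a weight of 237.9 degrees of freedom. The arrays of CPE, ATP1B1, UCHL1 and MT3 agreed more closely than this shared SD, and those of NDN less closely. An exact two-sided sign-flip test over 2 arrays cannot give a p below 0.5. Tested on its own 2 arrays, in limma without moderation, CPE had an adjusted p of 0.60, and 0 of the 83 genes passed, with 5 at an unadjusted p under 0.05.

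From lowest to highest mean the order was CPE, ATP1B1, NDN, UCHL1 and MT3. Neighbours in this order were not told apart. CPE was 0.057 below ATP1B1 on array 1, as the difference in log2 ratio was -0.057, and above it on array 2, at 0.0079. ATP1B1 against NDN likewise changed sign, from -0.10 on array 1 to 0.048 on array 2, and NDN against UCHL1 went from 0.021 to -0.076. UCHL1 and MT3 kept their order, with differences of -0.00056 and -0.033. Between the ends of the order, CPE was below MT3 on both arrays, with differences of -0.14 and -0.053.

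**Figure D2:**
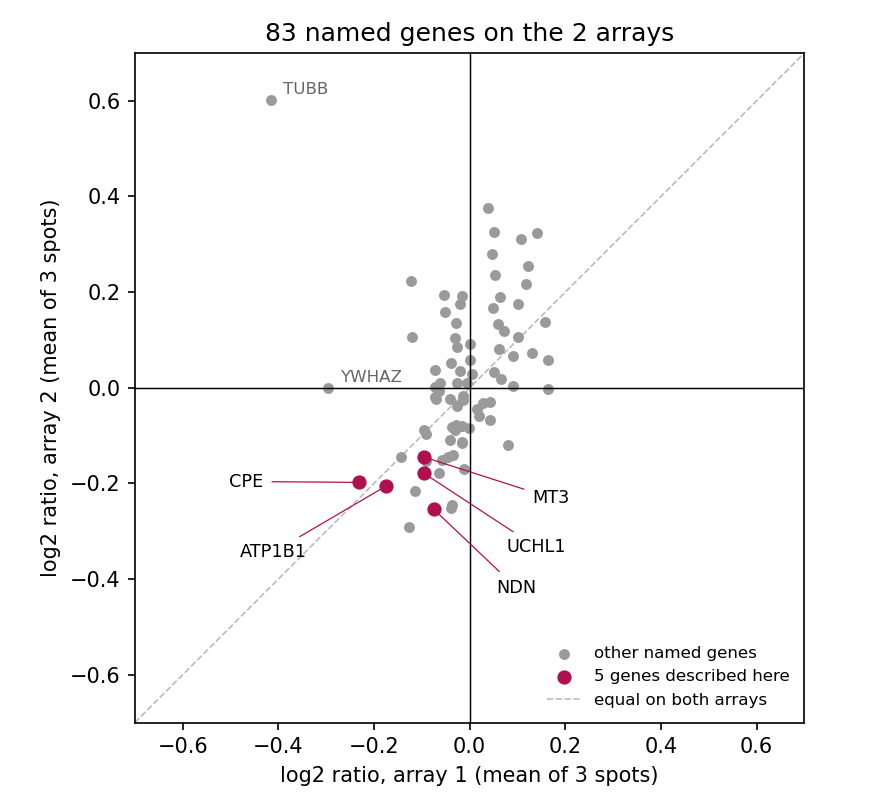
Mean log2 ratio of the 3 spots on array 1 (horizontal axis) and array 2 (vertical axis) for the 83 named genes, each point a gene, with the 5 genes described here in red and the dashed line marking equal values. The 5 lie in the lower left part with 28 of the other 78 genes; TUBB and YWHAZ, which held the outermost named spots, stand apart.

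The 5 genes had a median mean log2 ratio of -0.16, beside -0.0074 over all 83 named genes. In size their median was 0.16, or 1.12-fold, beside 0.075, or 1.05-fold, over the 83. By array, the medians of the 5 were -0.096 and -0.20, and those of the 83 were -0.020 and 0.0021. Of the 5, 4 were among the 10 lowest means, UCHL1 being the 10th, and MT3 was the 13th. C1QB, a complement chain made in brain mainly by microglia, had the highest mean of the 83 named genes. It lay on the other side of 0, at 0.14 and 0.32, so the 5 genes and C1QB differed in sign within the same arrays.

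Repeatability of the 5 genes was described at 2 levels. The pooled SD over the 3 spots of a gene was 0.035 on array 1 and 0.11 on array 2, and array 2 had the wider spots for 5 of 5 genes, beside 68 of the 83. For the other 78 genes the pooled SD was 0.20 and 0.13, or 0.054 and 0.12 without TUBB and YWHAZ, left out after their values were seen. As the median over single genes, this SD was 0.033 and 0.11 for the 5 genes and 0.042 and 0.086 for the 78, so on array 2 the 5 genes were below the others by the pooled SD and above them by the median. Such a scatter leaves a standard error of 0.020 on array 1 and 0.065 on array 2 for the mean of 3 spots. Between arrays, the pooled SD of the gene means was 0.066 for the 5 genes, beside 0.12 for the other 78 and 0.091 for those without TUBB and YWHAZ. Spot scatter alone would give an SD between arrays of 0.048 for the 5 genes. For the other 78 it would give 0.099, and 0.052 without TUBB and YWHAZ, so these sets exceeded theirs too. NDN exceeded its own such value, 0.13 against 0.060, and UCHL1 did too, 0.058 against 0.035. CPE, ATP1B1 and MT3 stayed below theirs, at 0.024 against 0.038, 0.022 against 0.055 and 0.035 against 0.047. With 2 arrays for each SD, a single gene above or below its value shows little.

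In limma over all 3888 spots, none of the 15 spots of the 5 genes passed, with adjusted p between 0.46 and 0.61. That fit called 0 spots in all (0.00%), as did limma with robust moderation and without moderation. At an unadjusted p under 0.05 it had 4 of the 15 spots and 412 of all spots (10.6%), and the other versions had 436 and 219 of all spots.

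The place of a gene in the spot order was then compared with its ratio, since ratios of neighbouring spots lay above or below 0 together in places. What the spot order means on the slide is not given in the sources used here. The 60 spots within 30 spot numbers of each gene, its own left out, had medians that ran from -0.050 to 0.066 on array 1 and from -0.044 to 0.049 on array 2. ATP1B1 and UCHL1 lay against a local median above 0. For ATP1B1 this was 0.055 on array 1 and 0.049 on array 2, and 0 of the 60 spots on array 1 and 5 on array 2 were below its gene mean. For UCHL1 the local medians were 0.066 and 0.046, with 2 and 6 spots below its mean. Less the local median, ATP1B1 had a mean of -0.24 and UCHL1 of -0.19, both farther from 0 than as deposited, though neither passed in limma (adjusted p = 0.17 and 0.28).

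CPE, with local medians of -0.044 and 0.023, had a mean of -0.20 after the same step (limma adjusted p = 0.24), with 2 and 9 of the 60 spots below its gene mean. NDN had local medians of -0.012 and -0.0010 and kept a mean of -0.16 (limma adjusted p = 0.46). MT3 differed from the other 4 in its surroundings. The 30 spots before it had medians of 0.077 and 0.085 and the 30 after it of -0.092 and -0.095, and the gene means of MT3 were -0.096, near the spots that follow it, on array 1 and -0.14, below their median, on array 2. Of the 60 spots around MT3, 15 on array 1 and 17 on array 2 were below its gene mean, and its mean less the local median was -0.073 (limma adjusted p = 0.74). The part of such local shifts in the ratios of the 5 genes was not tested beyond this step. After it, all 30 spot values of the 5 genes were still below 0, while 16 of the 83 genes were below 0 in all 6 values.

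**Figure D3:**
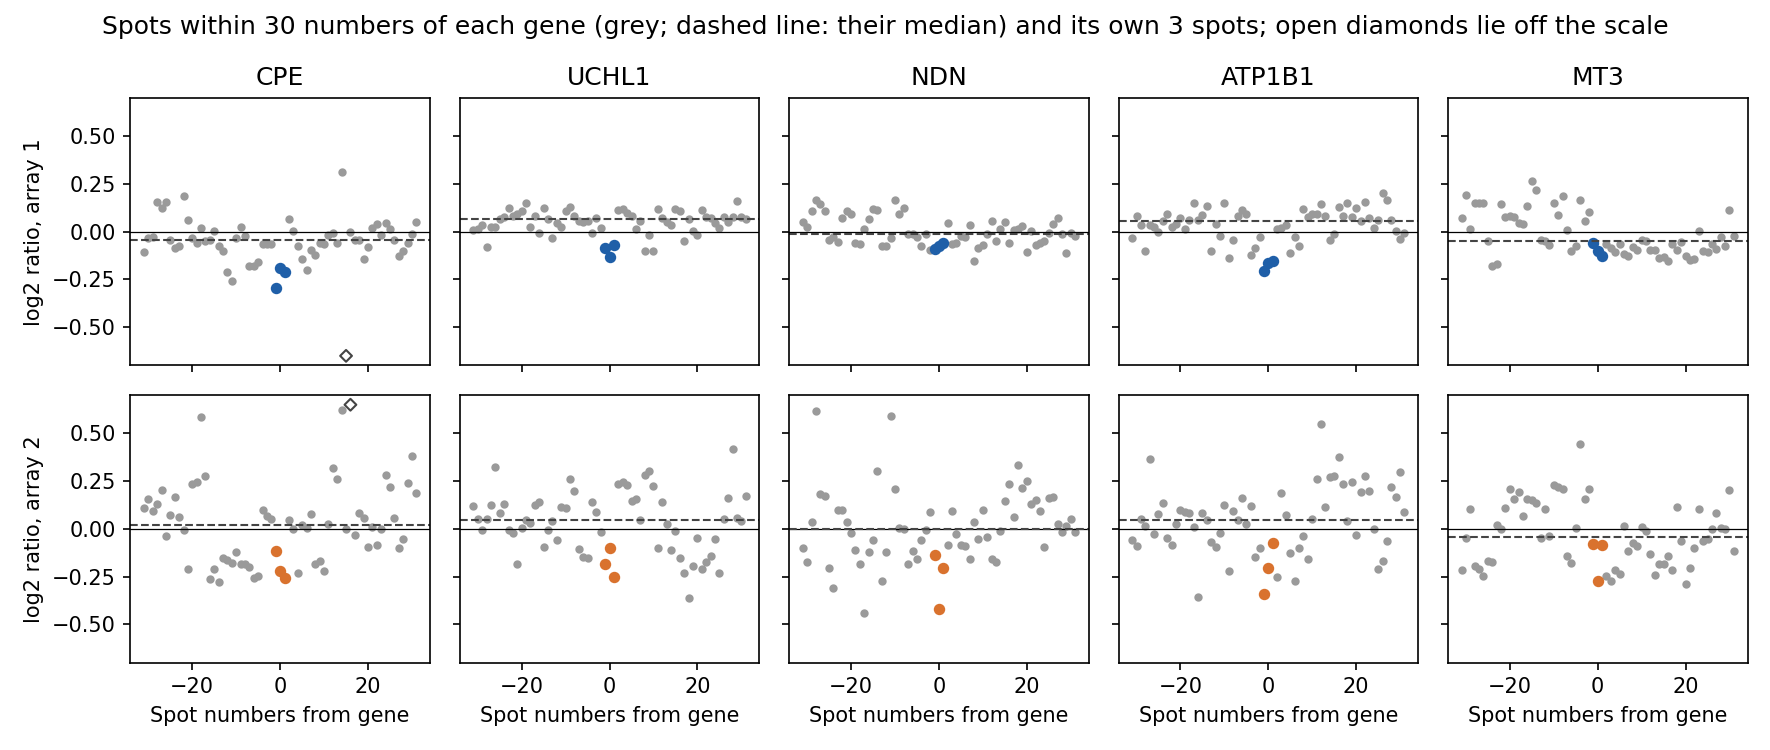
Log2 ratios (vertical axis) of the 60 spots within 30 spot numbers of each gene (grey) and of its own 3 spots (array 1 blue, upper row; array 2 orange, lower row), against the distance in spot numbers from the gene's middle spot; dashed lines are medians of the grey spots, and 2 values beyond 0.65 in size are drawn as open diamonds at the edge. Around MT3 the grey spots step from above 0 to below 0 on both arrays, while ATP1B1 and UCHL1 lie under surroundings above 0.

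The nearest other named gene, by Euclidean distance between the pairs of array means, was HSPA5, the chaperone of the endoplasmic reticulum, for CPE, at a distance of 0.10, with means of -0.14 on both arrays. It was RPS29, a ribosomal protein, for ATP1B1 (distance 0.062, means -0.11 and -0.21). For NDN it was JPT1 (distance 0.037, means -0.038 and -0.25). For UCHL1 and for MT3 it was SLC25A6, a mitochondrial exchanger of ADP and ATP, with means of -0.092 and -0.15 and distances of 0.025 and 0.0093. With 2 arrays, a short distance says only that the error was alike.

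Few relatives of the 5 genes carry a name on the array. Of 10 genes of neuropeptide processing, 28 of neuron function, 9 of the sodium pump, 5 metallothioneins and 13 of the ubiquitin pathway, the named ones were all among the 5 genes: CPE, UCHL1 with NDN, ATP1B1, MT3 and again UCHL1. In these lists CPE was the gene that passed, below 0. Listed as markers of other brain cells were TF and SCD for myelin, at 0.0026 ± 0.012 and 0.050 ± 0.25 (SD, n = 2). Neither passed. The microglia list held C1QB, at 0.23 ± 0.13 (SD, n = 2), and B2M, at 0.071 ± 0.015, which is not particular to microglia. Of these C1QB passed, above 0. The call of C1QB was lost under 12 of the 13 alternatives, with limma adjusted p from 0.042 to 0.99. No gene of the endothelium and blood list (5 genes) or of the choroid plexus and ependyma list (2 genes) was named. POMC, a peptide precursor of the kind that CPE trims, and TRO, a MAGE family gene like NDN, were added after their values were seen. POMC was above 0 in all 6 values, with means of 0.090 and 0.067, and TRO had means of -0.029 and 0.13. Neither shared the sign of CPE or NDN on both arrays.

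**Figure D4:**
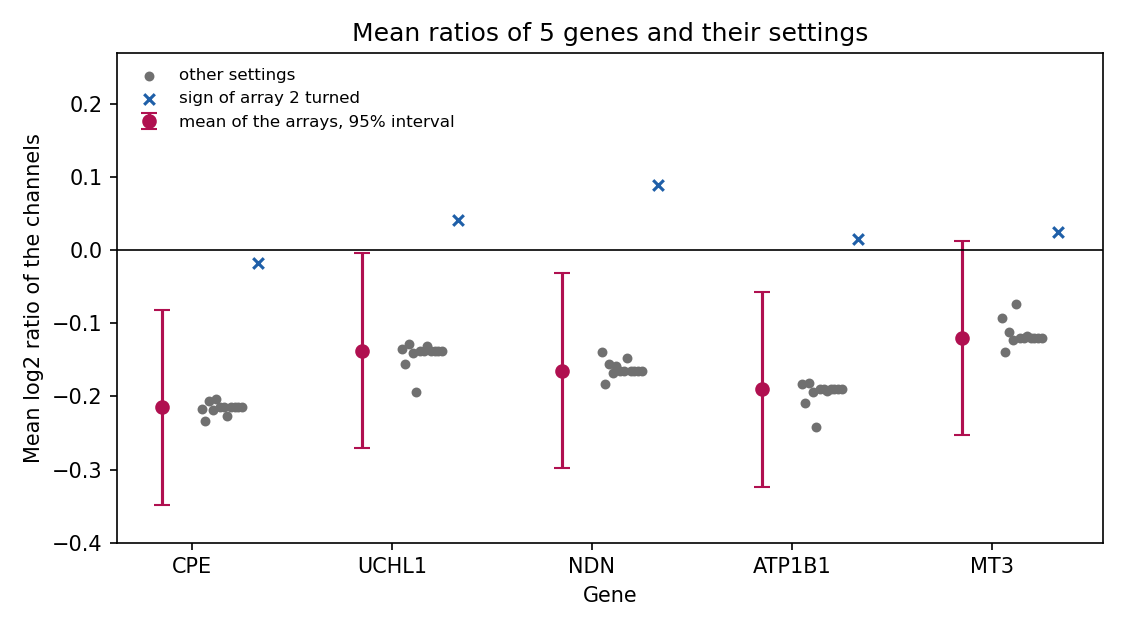
Mean log2 ratio over the arrays (vertical axis) for the 5 genes with its 95% interval from limma (red), the means under 12 other settings (grey) and with the sign of array 2 turned (blue crosses). The grey points stay below 0 for all 5 genes, whereas turning array 2 puts every gene except CPE above 0. Several grey points repeat the mean as deposited, since their settings change only the fit or leave these genes as they were.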

How the data were processed

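The values as deposited by the authors were signed ratios of 1 channel to the other, given once for each spot of an array, and were read as log2, the usual base of 2-colour arrays. The largest size, 6.20, is beyond the 4.82 that log10 of a 16-bit range allows, and a natural log is not excluded. How the authors corrected background, centred or dyed the arrays before depositing these log2 ratios is not given in the sources used here. The median was 0 in either column, and 544 of the 3888 spots on array 1 and 494 on array 2 were exactly 0. These zeros were kept in the main fits. Over spots 1 to 2595 the medians were 0.016 and 0.021. Among the named genes, TUBB held 2 exact zeros and YWHAZ held 4, and the 5 genes described here held none. Gene names came from the platform annotation, with 1 symbol for 249 spots, several for 0 and none for 3639. By gene ID, 80 of 83 genes and 5 of 5 members were found in the pig RefSeq table (Sscrofa11.1), the members with the same symbol. The number of arrays limits the precision.

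Each gene's 3 spots were averaged, and limma 3.58.1 (R 4.3.3) compared the mean of the arrays with 0 (intercept, eBayes, two-sided), with Benjamini-Hochberg adjustment over 83 genes at 0.05. A second limma fit took all 3888 spots. The fits were tested on simulated data, with shifts larger in size than the means of the 5 genes. That test therefore does not cover differences as small as theirs. Python 3.11.15, numpy 2.4.6, pandas 2.3.3 and matplotlib 3.10.9 were used. The genes named were the 5 members, the nearest other gene to each, and listed pathway and marker genes; TUBB, YWHAZ, TPT1, POMC and TRO were added after their values were seen. Members and lists were chosen with earlier results of these data known. Alternatives covered centring, local offsets, spot summary, moderation, scale, exact zeros, sign and the features sharing a spread.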

Additional observations from a re-analysis of the deposited data

How the results depend on the processing

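The 2 channels of each array were already paired in its ratio. No further pairing was possible because both arrays belong to 1 group. CPE, with a mean of -0.22, passed in limma under robust eBayes and under duplicateCorrelation, and did not under the other 11 alternatives. Its mean was then -0.22 with the median of 3 spots, -0.23 centred on spots 1 to 2595, -0.21 centred on the named genes, -0.22 centred on the mean of all spots, -0.20 less the local median and -0.23 with equal robust SDs. It was -0.22, as deposited, without moderation, without exact zeros and over runs of 3 spots on the whole array or up to the last named spot. The count of passing members was 0, not 1, in each of these. The 5 passing genes of 83 became 0 in all of them except 1 without exact zeros, and 1, CPE, under duplicateCorrelation. Turning the sign of array 2 gave CPE -0.017, UCHL1 0.041, NDN 0.089, ATP1B1 0.015 and MT3 0.024. It also gave 0 passing members, 1 passing gene, a median size of 0.024 in place of 0.16, an SD between arrays of 0.24 in place of 0.066, 15 values below 0 in place of 30, and 0 members below 0 in all 6 spots in place of 5; this follows from turning values that had the same sign. The cause of the other lost calls was not tested. With array 1 or array 2 alone, which allows no test, the median size of the 5 genes was 0.096 or 0.20. The SD between spots was 0.035 or 0.11. UCHL1, NDN, ATP1B1 and MT3 passed under none of the 13 alternatives, with limma adjusted p from 0.064 upward. The count of 0 passing spots held under all 7 of its alternatives, which says little at 1 residual degree of freedom per spot. The counts of values below 0 under other settings were added after seeing the data. Signal over background was not used here, so its limit on these ratios is unknown.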
